A study of Mus musculus with 12 samples.

Results

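Cholesterol and fatty acids are built from acetyl-CoA in the cytosol. The 33 genes described here encode the enzymes of that work and the proteins that control it. They were looked up by official symbol in a table of 21981 protein-coding genes, all 33 were found, and the values of a gene's transcripts were added up. By role, the list holds 7 genes of the mevalonate steps, 11 genes that lead from farnesyl diphosphate through squalene to cholesterol, 4 genes of sterol sensing and transcription, 1 sterol carrier, 4 genes of fatty acid synthesis, 4 genes of desaturation and elongation, and 2 genes of myelin lipid synthesis.

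RNA came from 8-week-old C57BL/6 mice, an inbred laboratory strain, in a study of persistent inflammatory pain in the jaw joint. The trigeminal ganglion (TG) holds the cell bodies of the sensory neurons of face and jaw with their satellite glia and Schwann cells. The caudal part of the spinal trigeminal nucleus (Sp5C) is the brainstem region that receives their pain and temperature signals. By their titles the libraries form 4 groups of 3. STG and CTG are ganglion groups, and SSp5C and CSp5C are groups of the nucleus. All 12 libraries share the strain and the age. The labels do not spell out the letters S and C, so differences between them are given as C minus S. Whether each library stands for its own animal is not stated, so the p-values reflect the scatter among these samples and possibly technical scatter alone.

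As background, sterol synthesis begins when Acat2 and Hmgcs1 join acetyl-CoA units. Mevalonate is then turned into isoprenoid units and farnesyl diphosphate, Sqle adds oxygen to squalene, and a series of reactions on the ring ends with Dhcr7. The transcription factors encoded by Srebf1 and Srebf2 are held in the endoplasmic reticulum by Scap and Insig1 while sterol is plentiful, and when it is scarce they are cut free and switch on most genes of both pathways. In nervous tissue the largest use of new lipid is myelin, the membrane that Schwann cells wrap around axons in nerves and ganglia and that oligodendrocytes wrap around axons in the brain. Myelin is rich in cholesterol and in galactosylceramide, whose synthesis uses Ugt8a and, for the hydroxylated form, Fa2h.

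Promoter sequences are shown for 3 members because the results below bear on them. Dhcr7 had transcripts from a pair of start sites that differed between tissues, Elovl1 had such a transcript from its downstream start, and the Hmgcs1 window was the only one of the list with a match to the sterol regulatory element searched. Another Dhcr7 window that overlaps the upstream one is not printed. Each window runs from 250 bases before to 50 bases after a RefSeq start, on the GRCm38.p6 mouse build and on the plus strand, 5′ to 3′. Capitals mark matches, on either strand, to the sterol regulatory element TCACNCCAC, the CCAAT box CCAAT, the GC box GGGCGG and the E-box CACGTG. The windows are, in order, Dhcr7 upstream (chr7:143822917-143823216), Dhcr7 downstream (chr7:143829964-143830263), Elovl1 upstream (chr4:118427843-118428142), Elovl1 downstream (chr4:118429451-118429750) and Hmgcs1 (chr13:119690101-119690400).
Dhcr7 upstream: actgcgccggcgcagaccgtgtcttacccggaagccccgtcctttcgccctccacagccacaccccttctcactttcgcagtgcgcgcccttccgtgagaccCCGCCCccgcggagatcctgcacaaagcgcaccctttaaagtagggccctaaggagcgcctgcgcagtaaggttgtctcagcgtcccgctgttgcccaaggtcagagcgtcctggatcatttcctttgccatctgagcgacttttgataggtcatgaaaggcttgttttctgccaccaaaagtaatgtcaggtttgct
Dhcr7 downstream: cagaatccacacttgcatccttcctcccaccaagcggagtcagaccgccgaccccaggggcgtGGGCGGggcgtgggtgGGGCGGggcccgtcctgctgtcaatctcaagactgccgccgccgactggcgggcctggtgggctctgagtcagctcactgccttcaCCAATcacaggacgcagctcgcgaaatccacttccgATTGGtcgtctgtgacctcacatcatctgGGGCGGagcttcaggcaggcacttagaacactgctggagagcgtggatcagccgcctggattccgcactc
Elovl1 upstream: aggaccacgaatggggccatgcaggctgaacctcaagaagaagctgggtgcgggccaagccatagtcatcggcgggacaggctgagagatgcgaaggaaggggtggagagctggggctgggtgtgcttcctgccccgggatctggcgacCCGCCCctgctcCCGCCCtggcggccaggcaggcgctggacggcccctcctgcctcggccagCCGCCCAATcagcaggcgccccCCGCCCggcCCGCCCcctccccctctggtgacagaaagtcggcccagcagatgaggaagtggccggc
Elovl1 downstream: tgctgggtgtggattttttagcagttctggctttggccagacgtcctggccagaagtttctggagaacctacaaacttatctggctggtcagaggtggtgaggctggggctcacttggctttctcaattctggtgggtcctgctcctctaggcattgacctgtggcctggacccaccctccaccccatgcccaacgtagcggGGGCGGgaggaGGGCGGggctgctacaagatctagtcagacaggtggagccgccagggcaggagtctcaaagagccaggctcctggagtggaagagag
Hmgcs1: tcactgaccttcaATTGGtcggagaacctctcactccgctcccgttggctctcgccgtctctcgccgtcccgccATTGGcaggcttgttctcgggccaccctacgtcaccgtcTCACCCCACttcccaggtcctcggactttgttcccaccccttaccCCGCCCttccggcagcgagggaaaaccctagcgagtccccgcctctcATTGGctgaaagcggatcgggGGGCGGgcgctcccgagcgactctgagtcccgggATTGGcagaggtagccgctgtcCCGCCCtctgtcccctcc

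The upstream Dhcr7 window held 1 GC box and no CCAAT box, while the downstream window held 3 GC boxes and 2 CCAAT boxes. The upstream Elovl1 window held 5 GC boxes and 1 CCAAT box that overlaps one of them, and the downstream window held 2 GC boxes. In the Hmgcs1 window there were 4 CCAAT boxes, 3 GC boxes and the sterol regulatory element, which begins 137 bases before the start. RefSeq windows were at hand for 26 of the 33 members, 34 windows in all. Fa2h, Fdft1, Fdps, Scd1, Scd2, Sqle and Stard4 were not among them. A CCAAT box was found in 22 of the 34 windows (64.7%), against 37.4% of all 32851 windows in the table and 37.1% of the 13075 windows of genes measured here. A GC box was found in 26 of 34 (76.5%), against 35.7% and 62%, and an E-box in 6 of 34 (17.6%), against 7.15% and 9.74%. The windows with an E-box belong to 5 genes, since the Scap windows overlap and hold the same E-box. The sterol regulatory element was found in 1 of 34 (2.94%), against 1.24% and 1.09%. These matches describe letters in a window, and no test was made on them.

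The unit of the table is FPKM, fragments scaled by transcript length and by the size of the library, so levels can be compared between genes per length. At low values the FPKM moved in even steps, which fit 22600000 (CSp5C replicate 3) to 31800000 fragments (CTG replicate 3) per library if the lengths of the GENCODE M21 annotation apply. On that scale the member with the fewest fragments, Ebp, rested on about 295 to 519 per library, for a counting error of at most 5.82%. Across genes, r lay between 0.974 and 0.989 within groups and between 0.765 and 0.803 across tissues. Defining markers separated the tissues as labelled. Prx, of myelinating Schwann cells, stood at 185 to 238 FPKM in TG and at 0.258 to 1.60 in Sp5C. Mog and Mobp, of oligodendrocytes, stood at 87.1 to 135 and 166 to 219 in Sp5C and at 2.32 to 10.3 and 3.61 to 15.4 in TG. Fat cells are rich in the same enzymes. Of 10 fat cell markers, 9 stayed below 1 FPKM in every library: Lep was listed at 0 in all 12, Adipoq reached at most 0.115, Plin1 at most 0.0827 and Fabp4 at most 0.869. The tenth, the lipase gene Lipe, stood at 2.30 to 2.68 in TG and 3.52 to 4.27 in Sp5C and was called lower in TG (-0.53, adjusted p = 5.59e-06 in limma).

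All 33 members were expressed in both tissues, and their levels covered the same wide range. Scd2, a stearoyl-CoA desaturase that makes monounsaturated fatty acids, was the highest in both, followed by Hmgcs1, Scd1, Ugt8a and Acly in the same order in each tissue. In TG the means ran from 460 ± 22.3 FPKM (SD, n = 6) for Scd2 to 8.79 ± 0.942 for Ebp. In Sp5C they ran from 557 ± 37.6 for Scd2 to 9.19 ± 1.97 for Hsd17b7. Scd1 at 127 ± 8.99 and Ugt8a at 124 ± 17.0, neighbours in the TG order, did not differ beyond their spread. The ranges of Fasn (51.2 ± 2.89) and Msmo1 (56.0 ± 4.30) in Sp5C overlapped as well. In TG the ranges of Scd2, Hmgcs1 and Scd1 were apart, whereas in Sp5C the range of Scd2 was apart from the rest and those of Hmgcs1 (lowest 120.3) and Scd1 (highest 136) overlapped.

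**Figure D1:**
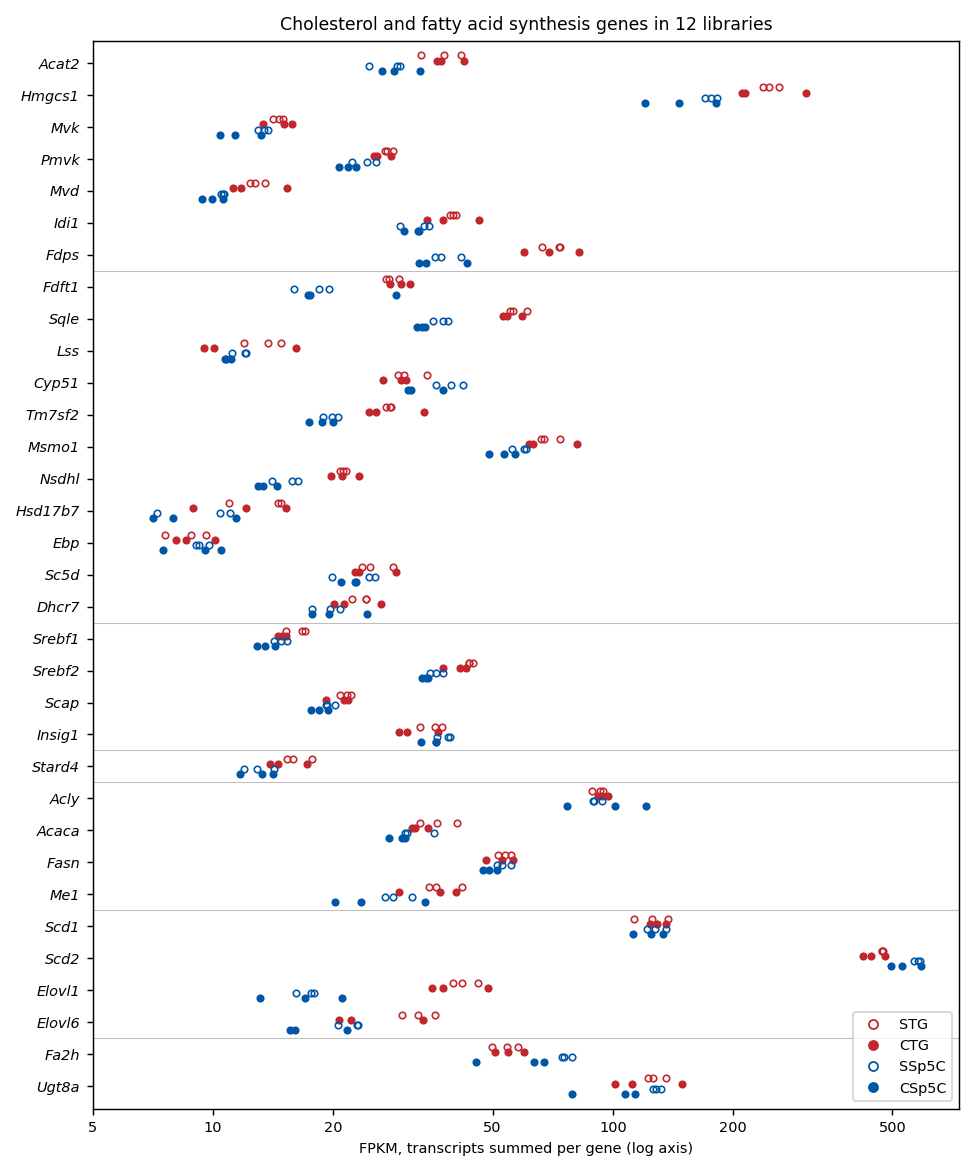
FPKM of each member (log axis) in the 12 libraries, with open circles for S, filled circles for C, red for TG and blue for Sp5C; lines part the roles. Red points lie to the right of blue ones in most sterol genes, while Scd2 lies further right in Sp5C. Red and blue do not overlap for Acat2, Hmgcs1, Mvd, Fdps, Sqle, Tm7sf2, Msmo1, Nsdhl, Elovl1 and Scd2.

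The mevalonate and squalene genes were mostly higher in TG than in Sp5C. Of the 33 members, 21 were called higher in TG (adjusted p under 0.05 in limma, a linear model fitted to all 13081 genes with a mean FPKM of at least 1) and 3 were lower, Cyp51, Scd2 and Fa2h. Of all genes tested, 36.2% were called higher and 35% lower. The members' median difference was 0.23 on the log2(FPKM + 1) scale, against 0.01 over all genes. In 9 of the 33 members every TG library lay above every Sp5C library, which is about the share of all genes (27.6%). Most differences were small: only Elovl1 reached 1 on the log2 scale, a size that 18.9% of all genes reached with a call. With the C libraries alone, 11 members were called higher and 0 lower in limma, against 3742 and 3687 of all 13100 genes tested. In bulk tissue, fewer cells of a type and less RNA per cell cannot be told apart.

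All 7 mevalonate genes were called higher in TG, against 36.2% of all genes tested. Hmgcs1, which makes HMG-CoA, stood at 260, 237 and 245 FPKM in STG, 304, 213 and 210.2 in CTG, 170, 182 and 176 in SSp5C, and 181, 146 and 120.3 in CSp5C, replicates 1 to 3 in order. Every TG library was above every Sp5C library, and the difference was 0.59 (SE 0.11, adjusted p = 0.00052). Fdps, which joins isoprenoid units into farnesyl diphosphate, stood at 73.3, 66.3 and 73.6 in STG, 82.4, 59.9 and 69.1 in CTG, 35.9, 41.8 and 37.1 in SSp5C, and 43.2, 34.0 and 32.8 in CSp5C. Its difference of 0.90 (SE 0.09, adjusted p = 2.62e-06) was the largest of the sterol genes, again with no overlap. Of its 50-base stretches, 82% also occur in transcripts of other annotated genes, chiefly Gm43738, so its level is uncertain. With its leading transcript alone in place of the sum, the difference was 0.44 and the call was lost (adjusted p = 0.247).

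The other 5 mevalonate genes differed by less. Acat2, the thiolase that joins the first acetyl-CoA units, was at 38.1 ± 3.48 in TG and 28.4 ± 2.80 in Sp5C (difference 0.41, adjusted p = 0.000472), although 45.9% of its 50-base stretches occur in Acat3 as well. Mvd, which removes a carboxyl group from mevalonate diphosphate, was at 12.8 ± 1.45 and 10.3 ± 0.4998 (0.29, adjusted p = 0.00252). These genes also had no overlap between tissues. Mvk and Pmvk, which phosphorylate mevalonate and its phosphate, were at 14.7 against 12.5 and at 26.9 against 22.9 (0.22 and 0.23). Idi1, the isomerase of the isoprenoid unit, was at 39.5 against 32.2 (0.28), although 21.3% of its 50-base stretches occur in Gm13502 as well. These 3 overlapped between tissues, with adjusted p of at most 0.00581. Not all of these calls were kept under the alternatives given at the end. There the adjusted p in limma reached 0.0588 for Mvd, 0.0652 for Idi1, 0.663 for Mvk and 0.573 for Pmvk.

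From squalene to cholesterol, 6 of 11 genes were called higher in TG and 1 lower, against 36.2% and 35% of all genes tested. Sqle, squalene epoxidase, had the smallest p of the list. It stood at 60.9, 56.2 and 55.2 FPKM in STG, 59.3, 54.4 and 53.0 in CTG, 35.4, 38.7 and 37.6 in SSp5C, and 33.3, 34.0 and 32.4 in CSp5C. The lowest TG library was well above the highest Sp5C library, and the difference was 0.67 (SE 0.04, adjusted p = 5.11e-08). Fdft1, squalene synthase, stood at 29.3, 27.0 and 27.6 in STG, 27.7, 29.6 and 31.1 in CTG, 15.9, 19.5 and 18.4 in SSp5C, and 17.2, 17.4 and 28.7 in CSp5C. Of the Sp5C libraries, only CSp5C replicate 3 reached the TG range. The difference was 0.56 (adjusted p = 0.000971) and became 0.67 without that library (adjusted p = 1.45e-06).

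Nsdhl, which takes off the methyl groups of the sterol ring as carbon dioxide, was at 21.2 ± 1.11 in TG and 14.5 ± 1.31 in Sp5C, a difference of 0.52 with no overlap (adjusted p = 2.10e-06). Msmo1, the oxidase that acts on the same methyl groups, was at 68.8 against 56.0 and differed by 0.29 with no overlap (adjusted p = 0.00314). Hsd17b7, a ketone reductase of this stage, was at 12.8 against 9.19 and differed by 0.43 (adjusted p = 0.0274), but this call was lost when any 1 of 7 libraries was left out. Tm7sf2, a sterol reductase, was at 27.7 against 19.2 and differed by 0.50 (adjusted p = 5.81e-05). The table lists under Tm7sf2 a transcript that GENCODE M21 names Vps51-201, which made up 46.0% of the sum in TG and 57.2% in Sp5C. Without it, a setting added after the data had been seen, Tm7sf2 was at 14.99 ± 3.18 in TG and 8.22 ± 0.848 in Sp5C, a difference of 0.78 (adjusted p = 0.00011).

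Cyp51, which removes a methyl group from lanosterol, went the other way. It stood at 34.2, 29.1 and 30.1 FPKM in STG, 30.4, 29.6 and 26.7 in CTG, 36.0, 42.1 and 39.3 in SSp5C, and 31.3, 37.6 and 30.7 in CSp5C. The difference was -0.26 (SE 0.07, adjusted p = 0.0045), and only 1 CTG or STG library, STG replicate 1, lay above the lowest of the Sp5C libraries. Ebp, the isomerase that moves the ring's double bond, stood at 9.59, 8.82 and 7.58 in STG, 10.1, 8.07 and 8.56 in CTG, 9.04, 9.78 and 9.25 in SSp5C, and 10.4, 9.57 and 7.49 in CSp5C. These ranges overlapped fully, and its difference of -0.07 (95% interval -0.25 to 0.12) was not called. Lss, the lanosterol synthase, was at 12.7 against 11.3 (0.13, adjusted p = 0.293), and Sc5d, a sterol desaturase, at 25.2 against 22.7 (0.14, adjusted p = 0.122). Dhcr7, the last reductase, was at 23.0 against 19.9 (0.20, 95% interval 0.01 to 0.39, adjusted p = 0.0524). None of these 3 was called, but Dhcr7 was called with the S libraries alone and when CSp5C replicate 1, CTG replicate 2 or SSp5C replicate 3 was left out (adjusted p from 0.0089 to 0.122 with 1 library left out).

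Of the sensing and transcription genes, 3 of 4 were called higher in TG, against 36.2% of all genes tested. Srebf2, whose product chiefly drives sterol genes, stood at 44.8, 43.6 and 43.8 FPKM in STG, 43.0, 41.4 and 37.5 in CTG, 34.9, 37.7 and 36.2 in SSp5C, and 34.5, 33.4 and 34.0 in CSp5C. The tissues met only at CTG replicate 3 and SSp5C replicate 2, and the difference was 0.26 (SE 0.04, adjusted p = 8.05e-05). Srebf1, whose product chiefly drives fatty acid genes, stood at 17.0, 15.2 and 16.7 in STG, 14.5, 15.2 and 14.8 in CTG, 15.3, 14.2 and 14.8 in SSp5C, and 14.3, 12.9 and 13.5 in CSp5C. Its difference was 0.13 (adjusted p = 0.015) with overlap. Scap, the escort of both factors, was at 21.1 against 19.0 and differed by 0.14 (adjusted p = 0.00971).

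Insig1, which holds Scap back when sterol is plentiful and is itself a target of the factors, stood at 35.8, 32.8 and 37.4 FPKM in STG, 36.5, 30.6 and 29.1 in CTG, 36.4, 39.2 and 38.6 in SSp5C, and 33.2, 36.2 and 36.1 in CSp5C. The tissues overlapped, and its difference of -0.12 (95% interval -0.25 to 0.01, adjusted p = 0.0878) was not called. With 1 library left out, its adjusted p in limma ran from 0.00755 to 0.191, so the missing call depended on the libraries used. The difference was largest, at -0.17, without CTG replicate 1. Stard4, which carries cholesterol through the cytosol, was at 15.8 ± 1.48 in TG and 13.0 ± 1.04 in Sp5C (0.26, adjusted p = 0.00527).

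**Figure D2:**
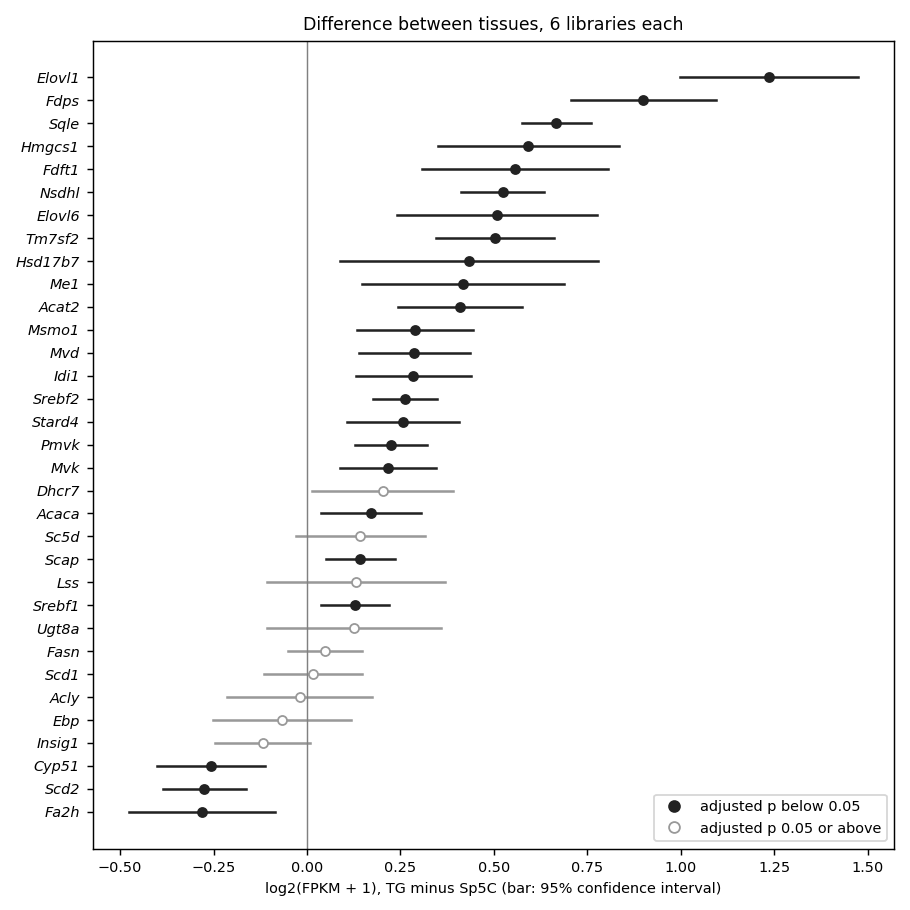
Difference in log2(FPKM + 1) between TG and Sp5C for each member, 6 libraries per tissue, with 95% confidence intervals; filled points passed an adjusted p of 0.05. Differences run from 1.24 for Elovl1 to -0.28 for Fa2h, with 21 filled points above 0 and 3 below.

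Of the 4 fatty acid synthesis genes, 2 were called higher in TG, Me1 and Acaca, against 36.2% of all genes tested. Acly, which cuts citrate to supply acetyl-CoA, was at 93.1 in TG and 95.3 in Sp5C (-0.02, 95% interval -0.21 to 0.17). Fasn, the fatty acid synthase, was at 53.0 and 51.2 (0.05, 95% interval -0.05 to 0.15). Neither was called. Me1, the malic enzyme that supplies reducing power, was higher in TG at 36.6 ± 4.53 against 27.4 ± 5.07 (0.42, adjusted p = 0.0101). Of its 50-base stretches, 27% also occur in transcripts of other annotated genes, chiefly Gm7049. Acaca, acetyl-CoA carboxylase, was at 34.7 against 30.7, was called at 0.17 (adjusted p = 0.0257), lost that call when any 1 of 5 libraries was left out, and shares 55.4% of its 50-base stretches with the annotated gene Gm5182.

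The desaturases and elongases split. Elovl1, which extends very long saturated chains such as those of sphingolipids, had the largest difference of the list. It stood at 42.0, 45.9 and 39.9 FPKM in STG, 48.8, 37.6 and 35.3 in CTG, 17.9, 17.6 and 16.1 in SSp5C, and 20.99, 17.0 and 13.1 in CSp5C. The tissues lay far apart, at 1.24 (SE 0.11, adjusted p = 1.11e-06). Elovl6, which extends palmitate to stearate, was at 29.1 ± 6.33 in TG and 19.9 ± 3.36 in Sp5C (0.51, adjusted p = 0.00292).

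Scd2 was the only member whose Sp5C libraries all lay above its TG libraries, against 26.1% of all genes. It stood at 474, 469.7 and 469.5 FPKM in STG, 479.9, 442 and 423 in CTG, 578, 585 and 565 in SSp5C, and 589, 527 and 495 in CSp5C, a difference of -0.27 (SE 0.05, adjusted p = 0.000442). Its close relative Scd1 stood at 138, 113 and 125 in STG, 136, 124 and 129 in CTG, 122, 136 and 128 in SSp5C, and 134, 125 and 112 in CSp5C. Scd1 did not separate the tissues, with a difference of 0.02 (95% interval -0.12 to 0.15). The ratio of Scd2 to Scd1 in FPKM was 3.28 to 4.16 in TG (median 3.55) and 4.23 to 4.76 in Sp5C (median 4.42), so the ranges did not overlap.

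The myelin lipid genes also differed from each other. Fa2h, the hydroxylase of myelin fatty acids, stood at 58.0, 54.2 and 49.97 FPKM in STG, 59.8, 54.7 and 50.8 in CTG, 78.8, 74.5 and 75.4 in SSp5C, and 67.1, 63.5 and 45.4 in CSp5C. Of the Sp5C libraries, 5 lay above the TG range and CSp5C replicate 3 below it, and the difference was -0.28 (SE 0.09, adjusted p = 0.0139), or -0.37 without that library (adjusted p = 0.00014). With the C libraries alone the difference was -0.07 (adjusted p = 0.71). Ugt8a, the galactosyltransferase that makes galactosylceramide, stood at 136, 126 and 122 in STG, 149, 112 and 101 in CTG, 132, 126 and 128 in SSp5C, and 114, 107 and 79.2 in CSp5C. Its tissues overlapped, and the difference of 0.13 (95% interval -0.11 to 0.36) was not called.

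Myelin-forming cells differ between these tissues, and their markers differed far more than the members. All 7 Schwann cell markers were called higher in TG, with no overlap between tissues and a median difference of 5.49. The 8 oligodendrocyte markers summed to 561 to 778 FPKM in Sp5C and 17.8 to 61.2 in TG. Of 6 genes of myelin in both tissues, 5 were called lower in TG and 1 higher. Sensory neuron markers (6 genes) summed to 862 to 976 in TG and 8.95 to 36.8 in Sp5C, and astrocyte markers (7 genes) to 97.5 to 134 and 977 to 1295. The part of these cell types in the members' differences was not tested.

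Related genes went both ways between tissues, as did all genes tested, of which 36.2% were called higher in TG and 35% lower. Of 12 other sterol and isoprenoid genes, 7 were called higher in TG and 3 lower, with a median of 0.27. Among those called higher was Cyb5r3, which feeds electrons to sterol enzymes (65.0 against 22.1 FPKM, 1.52). On the lower side were Insig2, a relative of Insig1 (10.4 against 16.3, -0.60), and Ggps1, which makes geranylgeranyl diphosphate (16.8 against 23.4, -0.46).

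Of 20 genes of cholesterol transport and turnover, 19 were tested, with 8 higher, 7 lower and a median of 0.02. For this list and the next ones, the shares of all genes tested were 36.2% higher and 35% lower. Abca1, a cholesterol exporter (19.5 against 7.80, 1.23), and Scarb1, a lipoprotein receptor (10.9 against 4.65, 1.06), were higher in TG. Cyp46a1, the hydroxylase by which brain neurons dispose of cholesterol (3.11 against 14.7, -1.93), and Lcat, which esterifies cholesterol on lipoproteins (4.79 against 17.1, -1.64), were lower. All 4 were called. Of 19 other fatty acid genes, 18 were tested, with 6 higher, 10 lower and a median of -0.13, led in TG by the elongase Elovl7 (33.7 against 16.4, 1.0002) and the citrate carrier Slc25a1 (46.6 against 30.5, 0.59). The acyl-CoA synthetase Acsl3 (20.6 against 73.1, -1.79) and the elongase Elovl2 (1.68 against 5.79, -1.35) led in Sp5C. Of 16 other sphingolipid and myelin lipid genes, 6 were higher and 4 lower, with a median of -0.01. The ceramide synthase Cers4 (9.53 against 4.66, 0.90) and Sptlc2 of serine palmitoyltransferase (18.5 against 9.59, 0.88) led in TG. Aspa, which frees acetate from N-acetylaspartate (18.8 against 32.998, -0.81), and the ceramide synthase Cers6 (5.99 against 8.04, -0.37) led in Sp5C.

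The transcripts of a gene could also be taken one by one, in a fit of 20082 transcripts that was added after the data had been seen. The table lists 106 transcripts under the members, of which 60 were tested, with 25 called higher in TG and 6 lower. Over all transcripts tested, 26.6% were called higher and 27% lower. Of 19 members with more than 1 transcript tested, 2 had calls in opposite directions, Dhcr7 and Srebf2, against 6.13% of the 4501 genes of that kind. Transcript levels here are estimates that divide shared fragments between overlapping models. The division can jump between libraries: Acaca-201 was listed at 0 in STG replicates 1 and 2 and in SSp5C replicate 1, and at 16.7 to 22.9 FPKM in the other 9 libraries, although the gene's sum did not jump. The transcript of highest mean alone was also used in place of each gene's sum. In that setting 16 members were called higher in TG and 3 lower, against 4140 and 4088 of all 12734 genes tested. Mvk, Pmvk, Fdps, Srebf1, Acaca and Elovl1 then lost their calls, with Srebf1 and Acaca below 0, and Dhcr7 gained one.

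Dhcr7 was not called as a gene, but its transcripts were. Dhcr7-201, which starts at chr7:143823167 in the upstream window printed above, was at 21.9 ± 2.02 FPKM in TG and 10.3 ± 3.61 in Sp5C (1.08, adjusted p = 0.000643). Dhcr7-207, which starts 6910 bases further along, within the downstream window, was at 0.312 ± 0.0874 in TG. In Sp5C it stood at 7.64, 0.209 and 9.34 in SSp5C and at 7.33, 9.18 and 7.55 in CSp5C (-2.32, adjusted p = 0.00172). SSp5C replicate 2 thus lay within the TG range while the other 5 Sp5C libraries were far above it, and without it the difference was -2.81 (adjusted p = 3.14e-08). The 6 transcripts that start over 1000 bases past the first start made up 2.46% to 7.35% of the Dhcr7 sum in TG, and in Sp5C 5.20% in SSp5C replicate 2 and up to 64.8% elsewhere, with a median of 53.2%.

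In Elovl1 the downstream transcript was the one that was higher in TG. Elovl1-202, which starts at chr4:118429701 in the downstream window, stood at 13.8, 25.1 and 11.5 FPKM in STG, 17.99, 8.93 and 25.5 in CTG, 0.107, 0.0513 and 0.0706 in SSp5C, and 1.86, 1.101 and 0.126 in CSp5C. The tissues were far apart, at 3.57 (SE 0.30, adjusted p = 3.97e-06). Elovl1-201, which starts 1608 bases before it in the upstream window, was at 22.3 ± 10.5 in TG and 16.6 ± 2.12 in Sp5C and was not called (0.24, adjusted p = 0.603). The downstream start made up 23.8% to 72.2% of the Elovl1 sum in TG and 0.291% to 8.86% in Sp5C.

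**Figure D3:**
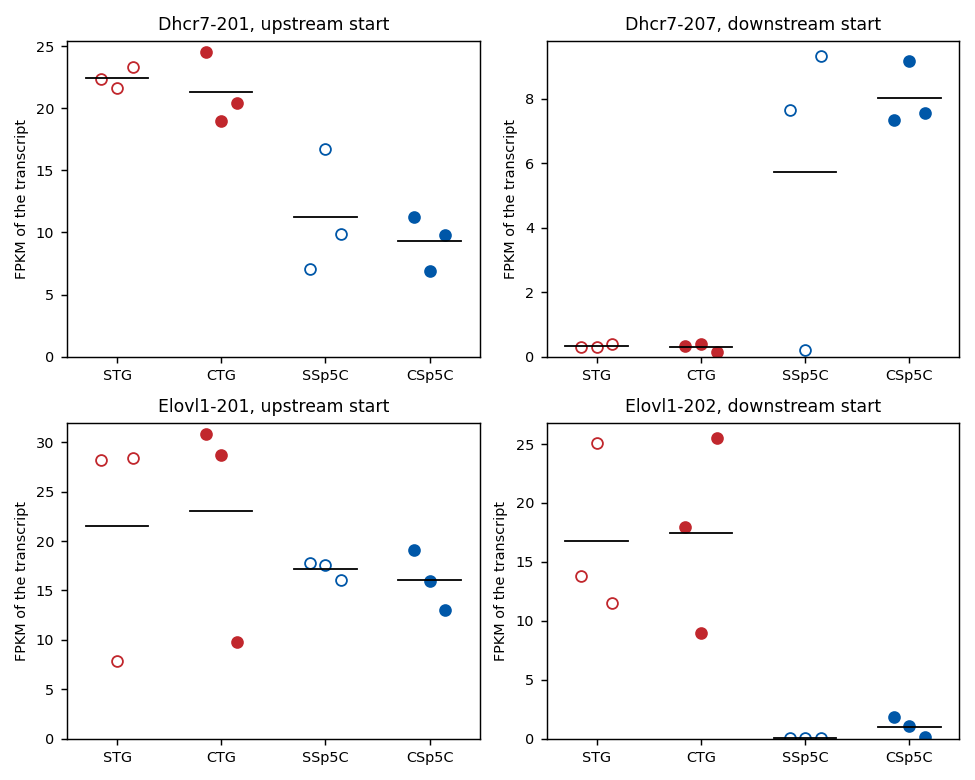
FPKM of 4 transcripts in each library (points) with group means (lines): Dhcr7-201 and Elovl1-201 start upstream, Dhcr7-207 and Elovl1-202 downstream. Dhcr7-207 is high in 5 of 6 Sp5C libraries and below 0.4 in all TG libraries, whereas Elovl1-202 is above 8 in all TG libraries and below 2 in all Sp5C libraries.

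The regulators gave less contrast between starts. Srebf2-201, the main transcript, was at 40.7 ± 2.49 in TG and 32.5 ± 1.92 in Sp5C (0.31, adjusted p = 7.95e-05), while Srebf2-202, an incomplete model, was lower in TG at 1.401 ± 0.251 against 2.30 ± 0.521 (-0.45, adjusted p = 0.00785). For Srebf1, the transcript from the upstream start, Srebf1-201, was at 6.77 ± 1.22 and 5.41 ± 1.28 (adjusted p = 0.128), and Srebf1-207, from a start inside the gene, was at 1.85 ± 0.287 and 1.87 ± 0.164 (adjusted p = 0.89). The remaining one of the 3 Srebf1 transcripts tested had the highest mean and differed by -0.00025. None of the 3 was called.

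Within the ganglion, CTG and STG differed little in these genes. No member passed the threshold, and none had an unadjusted p under 0.05, against 4.7% of all genes. Of 12906 genes tested, 1 was called (0.00775%). The members' differences lay below 0 in 24 of 33 (52% of all genes), with a median of -0.05 against -0.01 over all genes. Srebf2 was the only member whose CTG libraries all lay below its STG libraries, against 6.32% of all genes, at 43.0, 41.4 and 37.5 FPKM against 44.8, 43.6 and 43.8 (-0.12, unadjusted p = 0.119).

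The smallest unadjusted p belonged to Elovl6, which stood at 36.0, 29.6 and 32.5 FPKM in STG and 33.5, 22.1 and 20.6 in CTG. CTG replicate 1 lay within the STG range while the other CTG libraries lay below it (-0.38, 95% interval -0.82 to 0.06, unadjusted p = 0.0788). Srebf1 (-0.12) stood at 17.0, 15.2 and 16.7 in STG and 14.5, 15.2 and 14.8 in CTG, which met at replicate 2. Acaca (-0.16) stood at 40.8, 36.2 and 32.95 in STG and 34.5, 31.5 and 32.1 in CTG, with overlap at CTG replicate 1. The adjusted p of all 4 was 0.96.

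CTG replicate 1 stood apart in the members. It lay above both other CTG libraries in 29 of 33 members and in 17 of the 18 enzymes from Acat2 to Dhcr7, against 42.9% of all genes. Its 9 markers of granulocytes and bone marrow summed to 871 FPKM, against 12.2 and 292 in the other CTG libraries and 3.97 to 33.5 in STG, and its 6 muscle markers to 17.4 against 0.629 to 1.23 in the other TG libraries. STG replicate 1 carried 2865 FPKM of 7 pituitary markers, against 2.57 to 51.6 in the other TG libraries. The part of these tissues in the members' values was not tested. Without CTG replicate 1 the members lay below 0 in 30 of 33, with a median of -0.14, and 9 had an unadjusted p under 0.05, against 7.59% of all genes in that setting, but still none was called, with 7 calls among 12839 genes. Without CTG replicate 3 the median was 0.01.

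In the nucleus, most members lay lower in CSp5C than in SSp5C, but none passed the threshold. Of 12690 genes tested, 4 were called (0.0315%). The members' differences were below 0 in 28 of 33 (49.7% of all genes), with a median of -0.10 against 0.00 over all genes, and 5 had an unadjusted p under 0.05, all lower, against 2.87% of all genes. In 6 members, Sqle, Ugt8a, Fa2h, Insig1, Srebf2 and Lss, every CSp5C library lay below every SSp5C library, against 6.2% of all genes. These 5 became 0 when SSp5C replicate 3 was dropped (4.19% of all genes then had such a p in either direction) and 1 when replicate 2 of that group was dropped (5.12%). Dropping CSp5C replicate 3 left 3 (5.23%), and dropping replicate 1 of the same group gave 8 (6.78%). No test of the list as a whole was made.

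Sqle stood at 33.3, 34.0 and 32.4 FPKM in CSp5C and 35.4, 38.7 and 37.6 in SSp5C, without overlap (-0.16, 95% interval -0.29 to -0.03, unadjusted p = 0.0203, adjusted p = 0.904 in limma). Ugt8a stood at 114, 107 and 79.2 against 132, 126 and 128 (-0.38, -0.69 to -0.06, unadjusted p = 0.0254). Fa2h stood at 67.1, 63.5 and 45.4 against 78.8, 74.5 and 75.4 (-0.39, -0.73 to -0.05, unadjusted p = 0.0295). In both myelin lipid genes CSp5C replicate 3 was far below the other libraries, and without it the differences were -0.22 for each. Elovl6 stood at 16.0, 15.5 and 21.6 against 20.6, 23.1 and 22.9, where CSp5C replicate 3 was the highest of its group and lay within the SSp5C range (-0.32, unadjusted p = 0.0377). Cyp51, the fifth, differed by -0.23 (unadjusted p = 0.0432), and the adjusted p of these 5 lay between 0.904 and 0.931.

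Oligodendrocyte markers lay lower beside the myelin lipid genes. Their 8 genes summed to 678, 720.3 and 561 FPKM in CSp5C and 778, 770.02 and 762 in SSp5C. All 8 were lower in CSp5C, 7 without overlap, 6 at an unadjusted p under 0.05 and none called. The 6 myelin genes of both tissues all lay lower in CSp5C, 5 without overlap and none called. Gal3st1, which turns galactosylceramide into sulfatide, was also lower, at 14.8, 11.9 and 11.9 against 19.9, 16.4 and 16.9 (-0.44, unadjusted p = 0.00501, adjusted p = 0.904 in limma). It was picked from the 16 other sphingolipid and myelin lipid genes, which went both ways. Of these, 9 lay lower in CSp5C and 7 higher, with a median of -0.01. Without overlap, 4 were lower and 1 higher. CSp5C replicate 3 was the lowest in Fa2h, in Ugt8a and in the summed oligodendrocyte markers, and it had the fewest fragments. It was also the lowest of the 6 Sp5C libraries in summed astrocyte markers (977 against 1056 to 1295 FPKM) and in 7 markers of microglia and macrophages (27.3 against 36.5 to 65.2). The part of these cell types' RNA in the differences of Fa2h and Ugt8a was not tested.

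**Figure D4:**
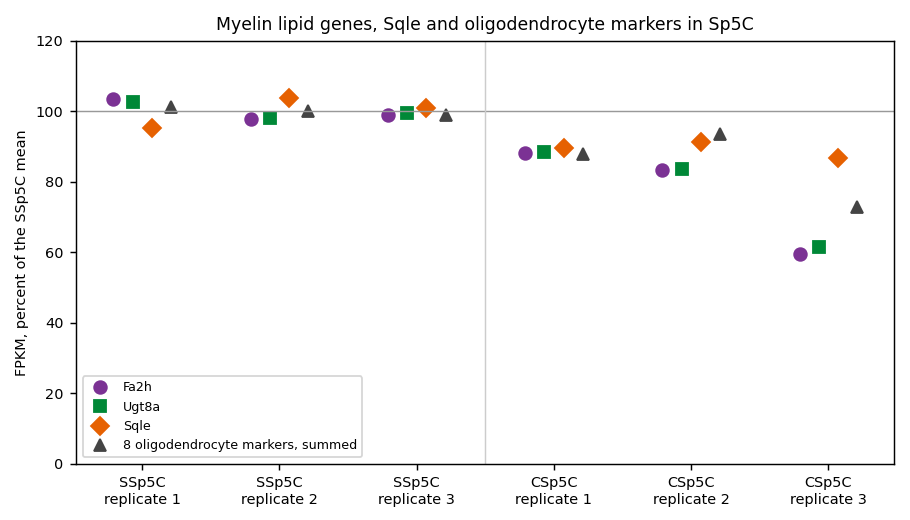
FPKM of Fa2h, Ugt8a, Sqle and the sum of 8 oligodendrocyte markers in the 6 Sp5C libraries, as percent of the SSp5C mean. In CSp5C replicate 3, Fa2h is at 59.6%, Ugt8a at 61.5%, the markers at 72.9% and Sqle at 86.9%.

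The C minus S difference was not shown to differ between tissues for any member. In the fit of all 12 libraries, 0 of 13081 genes were called for that difference in limma, with 708 (5.41%) at an unadjusted p under 0.05. Fa2h had the smallest p of the list, at 0.03 in TG and -0.39 in Sp5C, a difference of 0.42 (95% interval 0.03 to 0.81, unadjusted p = 0.0381, adjusted p = 0.889). Nsdhl came next at 0.17 (unadjusted p = 0.117). The 4 sensing and transcription genes lay below 0 in both tissues, from -0.14 to -0.05 in TG and from -0.12 to -0.08 in Sp5C, with no call in either.

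**Figure D5:**
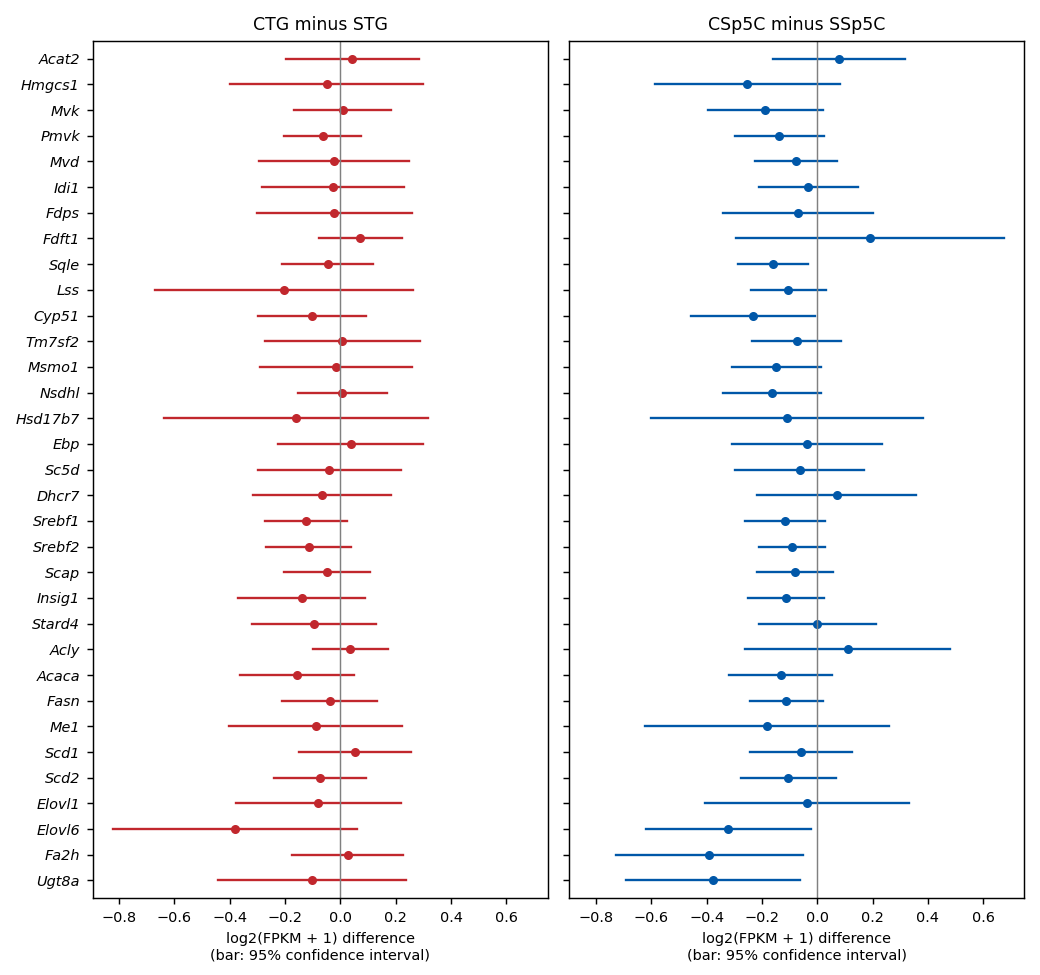
C minus S difference in log2(FPKM + 1) for each member in TG (left) and Sp5C (right), 3 libraries per group, with 95% confidence intervals. Most points in Sp5C lie below 0, and the intervals of Sqle, Cyp51, Elovl6, Fa2h and Ugt8a exclude 0 before adjustment, while every interval in TG includes 0.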

How the data were processed

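The authors deposited FPKM values per transcript and library. Per the submitters' processing notes the tools were HISAT2, StringTie 1.3.1 and Cuffdiff 2.1.1, and neither build nor annotation is given in the sources used here. Stranded libraries were made from 3 µg of Trizol-extracted RNA after removal of ribosomal RNA, per the labels' protocols. FPKM were summed per gene, log2 was taken after adding 1, genes with a mean FPKM of at least 1 over the libraries compared were kept, and limma 3.58.1 (trend and robust, two-sided, R 4.3.3) was run on the whole table with Benjamini-Hochberg adjustment. Differences on this scale understate the change of low genes. C against S used the 6 libraries of a tissue; the other contrasts used all 12. The fit was tested on simulated data. Transcript names and coordinates come from GENCODE M21 (GRCm38), which held 99.68% of the transcript IDs, so they may differ from the annotation used upstream. Fragment steps were read within 0.5%. The members and lists were chosen with earlier results of these data known. Every member is named; values by library are given for the 5 largest differences in each direction between tissues and for Scd1, Scd2, Srebf1, Srebf2, Fa2h and Ugt8a, and for C against S for the 4 smallest p in each tissue. Related lists give the 2 largest in each direction. Some related and marker genes that these rules name are not reported here. Cyp51 in Sp5C, Gal3st1 and the single transcripts were chosen after their values were seen.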

Additional observations from a re-analysis of the deposited data

How the results depend on the processing

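Alternatives were other pseudocounts, filters, scalings and moderation, the leading transcript alone, a replicate block, 1 library left out and, for the tissue contrast, S or C libraries alone. No member was called for C against S, or for the difference of both effects, under any of them. The number of all genes called moved: for CTG against STG to 0 with a mean FPKM of at least 5 or the fit of all 12 libraries, 2 with quantile normalization, 6 with the leading transcript and 0 to 7 with 1 library left out; for CSp5C against SSp5C to 0, 0, 2 (leading transcript) and 0 to 8; for the difference of effects to 0 to 2 with 1 library left out. Between tissues, 11 members were called higher and 0 lower with the C libraries alone, against 3742 and 3687 of all 13100 genes. With the leading transcript, 16 were higher and 3 lower, against 4140 and 4088 of 12734 genes. With 1 library left out, 19 to 22 were higher and 3 to 4 lower. Of the 13033 to 13110 genes tested in those fits, 8962 to 9208 were called in either direction. Among all alternatives between tissues, further calls were not always kept. The adjusted p in limma reached 0.127 for Cyp51, 0.121 for Stard4, 0.1004 for Me1, 0.095 for Scap, 0.0917 for Elovl6 and 0.0521 for Scd2.

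Signs that turned belonged to differences near 0 or to leading transcripts. They were, for TG against Sp5C: Acly 0.00917 with quantile normalization, 0.0166 with S libraries alone and 0.0554 at the highest with 1 library left out (lowest -0.11); Scd1 -0.0392 and Ugt8a -0.0103 with S libraries alone; Scd1 -0.0185 to 0.0521 with 1 library left out, below 0 without CSp5C replicate 3, CTG replicate 1, SSp5C replicate 1 or STG replicate 1; Srebf1 -0.00025 and Acaca -0.52 between tissues and Acaca 2.99 between CTG and STG with the leading transcript, whose levels jump between libraries. The cause of the other changes was not tested.

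With the replicate number as a block, 0 genes were called for CTG against STG and 0 for CSp5C against SSp5C, and Dhcr7 was called between tissues (0.20, adjusted p = 0.0034). The numbers are not known to pair libraries: same-numbered deviations correlated at 0.33, 0.23 and 0.38 between CTG and CSp5C, but at -0.08, -0.20 and -0.02 between STG and SSp5C, at 0.09, 0.19 and -0.15 between STG and CTG and at -0.13, 0.07 and 0.10 between SSp5C and CSp5C. Depth is not given, so it limits the values to an unknown degree beyond the estimate from the FPKM steps.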

Other observations

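In the Sp5C libraries too, replicate 1 of the C group was the highest in most members: CSp5C replicate 1 lay above both other CSp5C libraries in 22 of 33 members (36.3% of all genes), as CTG replicate 1 did in 29. In the S groups, STG replicate 1 did so in 22 (46.0% of all genes) and SSp5C replicate 1 in 11 (28.9%). The mean log2(FPKM + 1) of the 18 sterol enzymes was 5.09 in CTG replicate 1 against 4.79 and 4.81 in the other CTG libraries, and 4.62 in CSp5C replicate 1 against 4.53 and 4.46. In the S groups it was 4.98, 4.89 and 4.92 in STG and 4.56, 4.63 and 4.67 in SSp5C.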
